A study of Mus musculus with 6 samples.

Results

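The genes described here are the microbial sensors of the Toll-like receptor and NOD families other than Tlr4: Tlr1, Tlr2, Tlr3, Tlr5, Tlr6, Tlr7, Tlr8, Tlr9, Nod1 and Nod2. They were chosen by name, which picked 10 of the 54012 genes in the deposited table, and each name had 1 entry. RNA was sequenced from the intestine of 3 mice labelled wild type (WT) and 3 mice labelled TLR4ΔIEC, all aged 8 to 12 weeks, and the series title gives the tissue as small intestine. It names the effect of depleting intestinal TLR4 as the question. The labels name neither the promoter that drove the depletion nor the strain, the sex or the stretch of small intestine, and they record no treatment in either genotype. Levels are in TPM (transcripts per 1000000), an abundance per transcript length that adds up alike in every library, so levels of different genes can be set side by side.

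Toll-like receptors are membrane proteins whose leucine-rich outer part binds a microbial molecule and whose inner part recruits the adaptors Myd88 or Ticam1, which leads to NF-kB, AP-1 and interferon regulatory factors. Tlr1, Tlr2, Tlr5 and Tlr6 act at the cell surface on bacterial lipopeptides and flagellin, whereas Tlr3, Tlr7, Tlr8 and Tlr9 sense nucleic acids in endosomes. Nod1 and Nod2 are cytosolic, bind fragments of peptidoglycan and signal through the kinase Ripk2. In the small intestine these receptors are spread over epithelial cells, Paneth cells, macrophages, dendritic cells, B cells and stroma.

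Tlr3 and Tlr1 had higher TPM in all 3 TLR4ΔIEC libraries than in any WT library, and the other 8 receptors overlapped between the genotypes. None of the 10 passed the test across all genes. Mean Tlr3 was 7.00 ± 1.45 TPM in WT and 14.7 ± 4.88 TPM in TLR4ΔIEC (SD, n = 3), and mean Tlr1 was 4.04 ± 0.815 TPM and 6.38 ± 1.16 TPM. Means were higher in TLR4ΔIEC for 5 receptors and lower for 5. Groups that lay apart with TLR4ΔIEC higher were common: 13.3% of all genes above 0 TPM in some library had that pattern and 3.51% the reverse, so 2 of 10 higher and 0 lower is near the background. Among genes with a mean of 1 TPM or more, as Tlr1 and Tlr3 had, such separation was more common still, at 27.6% in either direction, 24.1% with TLR4ΔIEC higher and 3.53% with it lower. The test across all genes was limma on log2(TPM + 1) with Benjamini-Hochberg adjustment at 0.05, over the 13458 genes whose mean reached 1 TPM. It called 0.119% of those genes, 0.0446% higher in TLR4ΔIEC and 0.0743% lower. Only 5 receptors reached that mean, Tlr1, Tlr2, Tlr3, Tlr9 and Nod1, and the other 5 are described by their TPM.

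**Figure D1:**
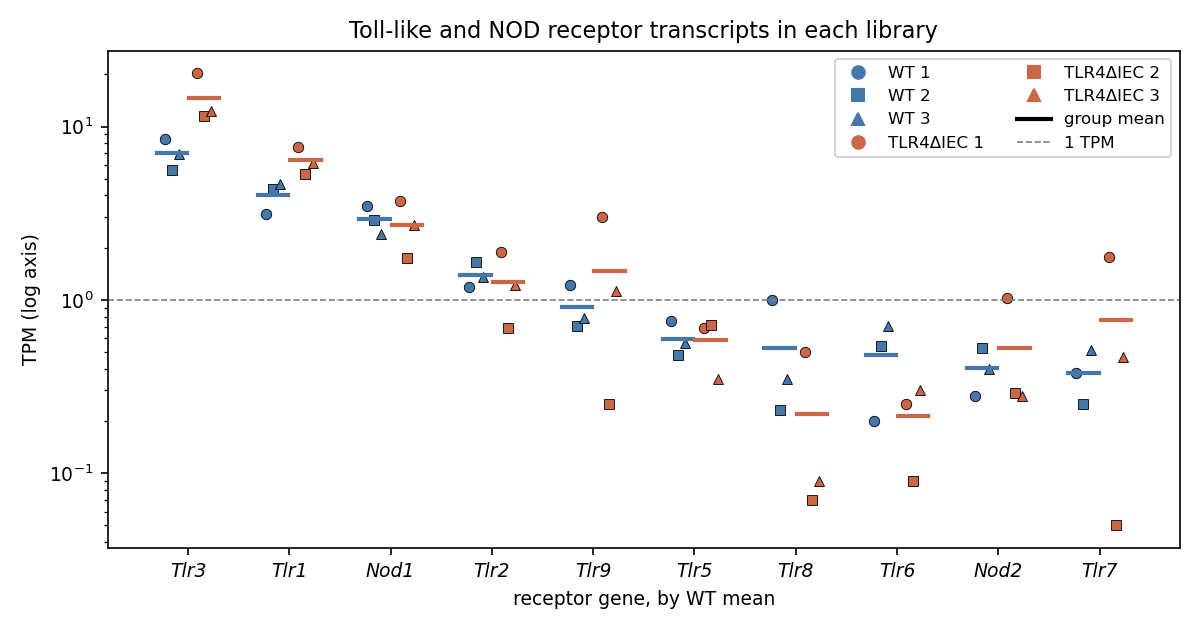
TPM of each of the 10 receptors on a log axis, ordered by WT mean, with a point for each of the 3 WT and 3 TLR4ΔIEC libraries, a short line for each group mean and a dashed line at 1 TPM. The groups lie apart for Tlr3 and Tlr1 and overlap for the other 8.

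Tlr4 itself, the receptor for lipopolysaccharide, did not have less RNA in the libraries labelled TLR4ΔIEC. Its WT libraries had 0.65, 0.57 and 0.70 TPM, against 1.29, 1.22 and 4.81 TPM in those labelled TLR4ΔIEC, a log2 fold change of 0.92 (SE 0.40, limma adjusted p = 0.243). All 3 lay above WT, and replicate 3 stood highest. A TPM over the whole gene does not tell whether a deleted exon was missing or in which cells, so it cannot check the label, and every direction below refers to the labels. TLR4ΔIEC replicate 2 stood apart from the other libraries: it had 20031 genes above 0 TPM, against 21558 to 21842, and the ribosomal RNA gene Rn18s at 12836 TPM, against 3806 to 7032. Summed markers of macrophages, dendritic cells, B cells, T cells, fibroblasts and endothelium were each lowest in that library, and summed markers of epithelium were highest there, at 12788 TPM against 7350 to 9999. Not all epithelial lists went that way: sums of goblet cells and enterocytes were highest there, but those of Paneth, stem and enteroendocrine cells were lowest. Neutrophil and smooth muscle sums were lowest there too. Summed ileal markers lay at 3264 to 8197 TPM in WT and at 10956 to 36704 in TLR4ΔIEC, and those of proximal small intestine at 175 to 924 and 29.3 to 113, so the stretch sampled and the genotype cannot be told apart. Fabp6 made up most of the ileal sum, and Fabp1 most of the proximal sum in WT, and single members went otherwise: Slc40a1 of the proximal list was at 7.39 and 23.8 TPM on average, and Fgf15 of the ileal list overlapped at 20.5 and 16.8 TPM. Fgf15 split the libraries by replicate number: it was at 0.70 TPM in WT replicate 1 and 1.40 TPM in TLR4ΔIEC replicate 1. In the other libraries it was at 20.32 to 33.15 TPM. Since these are whole-tissue samples, fewer cells of a type and less RNA per cell cannot be told apart either.

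Within WT, Tlr3 was the most abundant of the 10, followed by Tlr1, Nod1, Tlr2, Tlr9, Tlr5, Tlr8, Tlr6, Nod2 and Tlr7. Neighbours in that order overlapped between libraries except Tlr3 against Tlr1 and Nod1 against Tlr2. The order in TLR4ΔIEC was Tlr3, Tlr1, Nod1, Tlr9, Tlr2, Tlr7, Tlr5, Nod2, Tlr8 and Tlr6, and there Tlr3 against Tlr1 and Tlr1 against Nod1 were the neighbours that did not overlap. Tlr3, Tlr1 and Nod1 thus led in both genotypes.

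Among the receptors of the cell surface, Tlr1 pairs with Tlr2 to bind triacylated lipopeptides of bacteria. Tlr1 (ENSMUSG00000044827) lies on the minus strand of chromosome 5, from 64924679 to 64933563 in GRCm38. Its levels were 3.11, 4.38 and 4.63 TPM in the WT libraries, against 7.63, 5.35 and 6.16 TPM in those labelled TLR4ΔIEC. The lowest TLR4ΔIEC library stood above the highest WT library by less than the range within either genotype. The log2 fold change was 0.55 (SE 0.20, 95% interval 0.07 to 1.03), with an unadjusted p of 0.0297 and an adjusted p of 0.188 by limma. Without TLR4ΔIEC replicate 2 it was 0.66 with a limma adjusted p of 0.202. For the TPM themselves an exact permutation test, two-sided, gave p = 0.1, below which 3 against 3 cannot go. The separation of Tlr1 held under median-of-ratios scaling, but the groups overlapped when TPM were rescaled without the 20 highest genes (4.39 to 6.94 in WT and 6.49 to 10.2 in TLR4ΔIEC) or without alpha-defensin, mitochondrial and 18S-like genes (4.67 to 7.21 and 6.10 to 9.93).

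Tlr6, which pairs with Tlr2 for diacylated lipopeptides, is the neighbour of Tlr1 on the same strand. It (ENSMUSG00000051498) spans 64952031 to 64960097 of chromosome 5, with 18467 bases and no whole gene between the pair. In contrast to Tlr1, it was scarce: 0.20, 0.54 and 0.71 TPM in the WT libraries, against 0.25, 0.09 and 0.30 TPM in those labelled TLR4ΔIEC. The groups overlapped (exact permutation p = 0.3), and in a fit that kept genes down to a mean of 0.1 TPM its log2 fold change was -0.28 (95% interval -0.67 to 0.11, limma adjusted p = 0.468).

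The Tlr1 and Tlr6 values are linked through their sequence. Of the distinct runs of 50 bases in the transcripts of Tlr1, 13.6% also occur in Tlr6, and 12.3% of those of Tlr6 occur in Tlr1, so reads from the shared stretch could be split between the genes by the authors' counting. The shared part runs from base 1291 to 2220 of the Tlr1 coding sequence and from base 1330 to 2259 of that of Tlr6, where 915 of 930 bases (98.4%) are identical. The stretch of 150 bases that holds its start is shown because the genes become nearly identical there, so that fewer reads tell them apart. It covers coding bases 1231 to 1380 of Tlr1 (chr5:64925853-64926002) and 1270 to 1419 of Tlr6 (chr5:64954144-64954293) in GENCODE M21, on the minus strand of GRCm38, and is given 5′ to 3′ with capitals where the genes differ.
Tlr1: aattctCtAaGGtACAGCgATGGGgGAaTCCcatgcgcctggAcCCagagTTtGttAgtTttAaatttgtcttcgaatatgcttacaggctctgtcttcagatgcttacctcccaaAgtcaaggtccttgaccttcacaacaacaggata
Tlr6: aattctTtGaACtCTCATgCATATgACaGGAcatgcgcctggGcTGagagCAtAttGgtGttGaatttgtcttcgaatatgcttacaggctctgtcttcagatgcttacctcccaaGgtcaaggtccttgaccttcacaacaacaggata
The 60 bases before the shared part differ at 27 places and the 90 bases within it at 2. The longest identical run inside the shared part has 229 bases. The sum of Tlr1 and Tlr6, which any split between them leaves nearly the same, was 3.31, 4.92 and 5.34 TPM in the WT libraries, against 7.88, 5.44 and 6.46 TPM in those labelled TLR4ΔIEC. These sums lay apart as Tlr1 alone did, by a narrow gap of 5.34 to 5.44 TPM.

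Tlr2, the shared partner of Tlr1 and Tlr6, did not share the pattern of Tlr1. Tlr2 (ENSMUSG00000027995; chromosome 3, 83836272 to 83841767, minus strand) had 1.19, 1.65 and 1.35 TPM in the WT libraries, against 1.88, 0.69 and 1.21 TPM in those labelled TLR4ΔIEC. The highest and the lowest of the 6 values were both TLR4ΔIEC libraries, replicates 1 and 2. The log2 fold change was -0.11 (SE 0.26, 95% interval -0.74 to 0.51, limma adjusted p = 0.844), and it was 0.08 without TLR4ΔIEC replicate 2. Per 100 TPM of summed macrophage markers, Tlr2 was found at 0.614, 1.05 and 0.931 TPM in the WT libraries, against 0.796, 0.809 and 0.951 TPM in those labelled TLR4ΔIEC. Relative to their mean, the TLR4ΔIEC libraries lay closer together on that scale and the WT libraries further apart. The part of macrophages in the Tlr2 values was not tested.

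Set against each other within a library, Tlr1 and Tlr2 gave a ratio of 2.61, 2.65 and 3.43 in WT and of 4.06, 7.75 and 5.09 in TLR4ΔIEC. The means were 2.90 ± 0.460 and 5.63 ± 1.91 (SD, n = 3; exact permutation p = 0.1, the smallest possible). Such a ratio is the same however a library is multiplied as a whole. With Tlr6 added to Tlr1 the ratio to Tlr2 was 2.78 to 3.96 in WT and 4.19 to 7.88 in TLR4ΔIEC, again without overlap. The ratio of Tlr1 to Tlr6 was 6.52 to 15.6 in WT and 20.5 to 59.4 in TLR4ΔIEC, but its lower term was 0.09 to 0.71 TPM. These ratios were chosen after the values were seen.

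Tlr5, the receptor for flagellin (ENSMUSG00000079164; chromosome 1, 182954788 to 182976044, plus strand), was under the minimum mean of 1 TPM. Its WT libraries had 0.75, 0.48 and 0.56 TPM, against 0.69, 0.72 and 0.35 TPM in those labelled TLR4ΔIEC. The groups overlapped (exact permutation p = 1.0). In the fit down to 0.1 TPM its log2 fold change was -0.01 (95% interval -0.39 to 0.36).

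Among the endosomal receptors, Tlr3 senses double-stranded RNA and signals through Ticam1 rather than Myd88. It (ENSMUSG00000031639) lies on the minus strand of chromosome 8, from 45395665 to 45411080. Its levels were 8.48, 5.59 and 6.93 TPM in the WT libraries, against 20.3, 11.4 and 12.3 TPM in those labelled TLR4ΔIEC. TLR4ΔIEC replicate 1 was the highest, and the lowest TLR4ΔIEC library still lay above the highest WT library. The log2 fold change was 0.94 (SE 0.25, 95% interval 0.35 to 1.53), with an unadjusted p of 0.00694 and an adjusted p of 0.117 by limma. Unadjusted p-values under 0.05 were reached by 2 of the 5 tested receptors, Tlr3 and Tlr1, beside 21.2% of all tested genes, of which most were higher (18.4% of all tested genes, and 2.77% lower). The exact permutation test gave p = 0.1.

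For Tlr3 the sign and the size were kept without the library that stood apart: without TLR4ΔIEC replicate 2 the log2 fold change was 1.09 (limma adjusted p = 0.176), and without TLR4ΔIEC replicate 1 it was 0.70 (adjusted p = 0.0963). Exons of Tlr3 overlap the gene Gm45542 on the other strand, which was at 0.27 TPM in WT replicate 1, at 0.54 TPM in TLR4ΔIEC replicate 1 and at 0 in the other 4 libraries. Those levels are small beside Tlr3. The Tlr3 groups stayed apart under median-of-ratios scaling and under both rescalings named for Tlr1, in the last by 12.7 in WT against 13.0 in TLR4ΔIEC. Over all tested genes the median of the log2 fold changes was 0.16, and other ways of scaling the libraries moved it to between -0.13 and 0.03. Relative to that median, Tlr3 stood at 0.78 to 0.80 and Tlr1 at 0.39 to 0.46 under the 5 scalings.

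**Figure D2:**
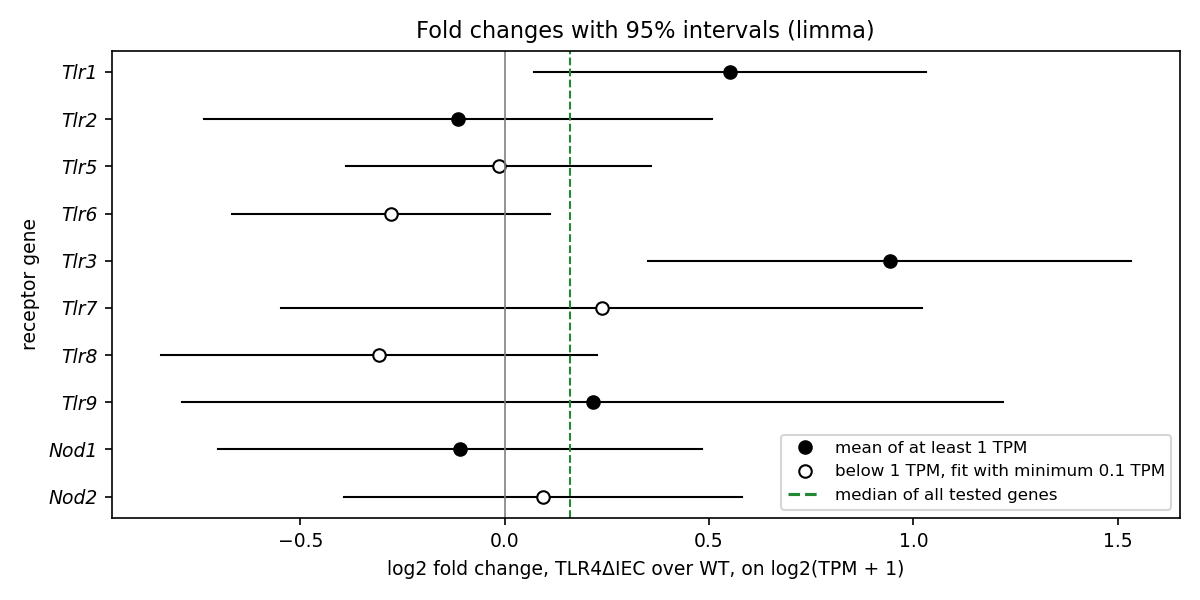
Log2 fold change of TLR4ΔIEC over WT with its 95% interval, on the log2(TPM + 1) scale, with filled points for receptors with a mean of at least 1 TPM and open points for the others, from the fit down to 0.1 TPM. A dashed line gives the median of all tested genes, 0.16. The intervals of Tlr1 and Tlr3 lie above 0, and those of the others span it.

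The share of Tlr3 in the summed TPM of the 10 receptors was 42.2%, 32.4% and 37.2% in WT and 49.8%, 55.3% and 49.2% in TLR4ΔIEC, with means of 37.3 ± 4.90% and 51.4 ± 3.35% (SD, n = 3; exact permutation p = 0.1). The Tlr3 share was chosen after the values were seen, and Tlr3 is itself the largest part of that sum. The share of Tlr1 overlapped between the genotypes, as did the ratio of Tlr3 to Tlr1. The ratio of Tlr3 to Nod1 was 1.93 to 2.88 in WT and 4.55 to 6.57 in TLR4ΔIEC. Against summed epithelial markers the groups were no longer apart: Tlr3 per 1000 TPM of those markers was 1.12, 0.735 and 0.943 TPM in the WT libraries, against 2.03, 0.894 and 1.31 TPM in those labelled TLR4ΔIEC (exact permutation p = 0.3). Tlr1 on the same scale was 0.411 to 0.630 TPM and 0.418 to 0.763 TPM (exact permutation p = 0.5). The 7 epithelial markers summed to 7350 to 7605 TPM in WT, against 9410 to 12788 in TLR4ΔIEC, also apart, and their part in the Tlr1 and Tlr3 differences was not tested.

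**Figure D3:**
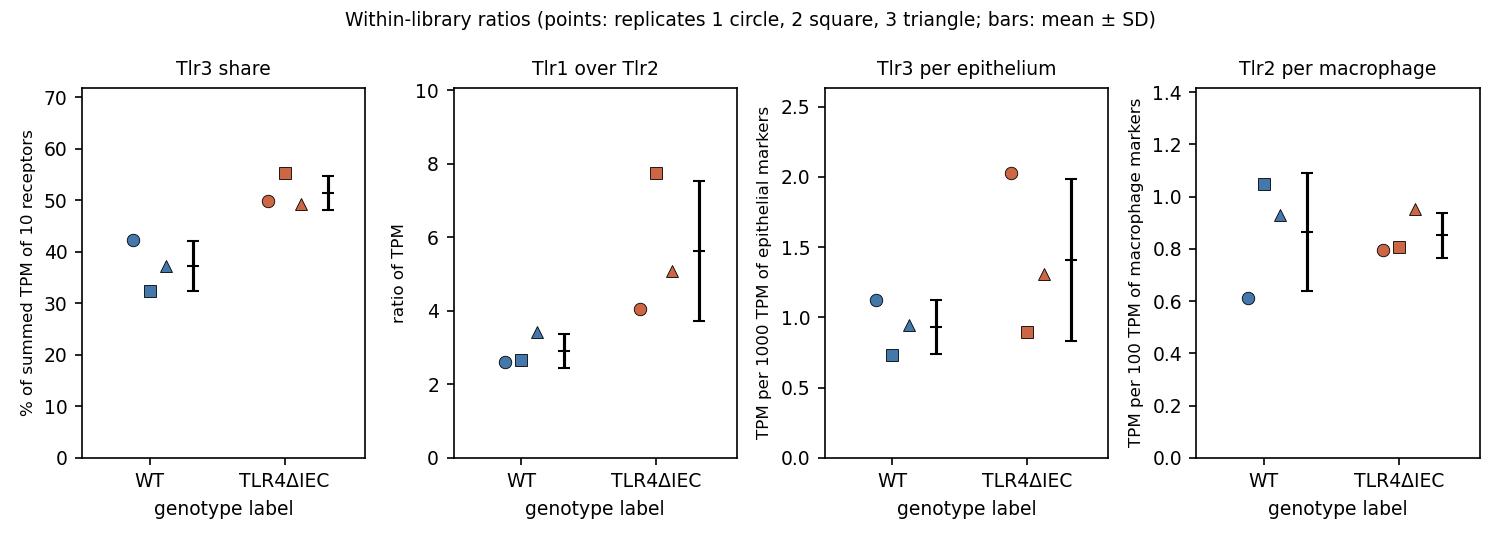
Ratios and shares of receptors within each library, 1 panel per quantity, with points for the 3 WT and 3 TLR4ΔIEC libraries and bars for mean and SD. The Tlr3 share and the ratio of Tlr1 to Tlr2 lie apart, whereas Tlr3 per 1000 TPM of epithelial markers and Tlr2 per 100 TPM of macrophage markers overlap.

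Tlr7 and Tlr8 sense single-stranded RNA and are neighbours on the minus strand of chromosome X. Tlr7 (ENSMUSG00000044583) spans 167304929 to 167330558 and Tlr8 (ENSMUSG00000040522) 167242696 to 167264329, with 40599 bases and no whole gene between them. Tlr7 was found at 0.38, 0.25 and 0.51 TPM in the WT libraries, against 1.76, 0.05 and 0.47 TPM in those labelled TLR4ΔIEC. Its TLR4ΔIEC libraries thus held both the highest and the lowest of the 6 values. Tlr8 was found at 1.00, 0.23 and 0.35 TPM in the WT libraries, against 0.50, 0.07 and 0.09 TPM in those labelled TLR4ΔIEC. The groups overlapped for both (exact permutation p = 0.8 and 0.4), and the log2 fold changes in the fit down to 0.1 TPM were 0.24 (95% interval -0.55 to 1.02) for Tlr7 and -0.31 (-0.84 to 0.23) for Tlr8.

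Tlr9, the sensor of unmethylated CpG DNA (ENSMUSG00000045322; chromosome 9, 106222598 to 106226883, plus strand), had the widest interval among the tested receptors. Its WT libraries had 1.22, 0.71 and 0.79 TPM, against 2.99, 0.25 and 1.13 TPM in those labelled TLR4ΔIEC. Replicate 1 was the highest and replicate 2 the lowest of all 6 libraries, both TLR4ΔIEC, and the log2 fold change was 0.22 (SE 0.43, 95% interval -0.79 to 1.22, limma adjusted p = 0.814). Without TLR4ΔIEC replicate 2 it was 0.62, and without TLR4ΔIEC replicate 1 the gene was under the minimum mean. Summed B cell markers were 15.5, 25.2 and 43.4 TPM in the WT libraries, against 83.9, 4.11 and 136 TPM in those labelled TLR4ΔIEC, with all 9 markers tested and Cr2, a complement receptor of B cells, at 0 in TLR4ΔIEC replicate 2. Tlr9 per 100 TPM of these markers was 1.82 to 7.88 TPM in WT and 0.831 to 6.08 TPM in TLR4ΔIEC. The part of B cells in the Tlr9 values was not tested.

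The 3 endosomal receptors other than Tlr3 summed to 2.60, 1.19 and 1.65 TPM in WT and to 5.25, 0.37 and 1.69 TPM in TLR4ΔIEC. The same sum with Tlr3 was 11.1, 6.78 and 8.58 TPM against 25.5, 11.8 and 14.0 TPM. It lay apart only with Tlr3 in it.

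Nod1, which binds peptidoglycan fragments holding diaminopimelic acid (ENSMUSG00000038058; chromosome 6, 54923949 to 54972612, minus strand), was the more abundant of the cytosolic sensors. Its WT libraries had 3.49, 2.90 and 2.41 TPM, against 3.70, 1.74 and 2.70 TPM in those labelled TLR4ΔIEC. The WT values lay inside the range of the TLR4ΔIEC values. The log2 fold change was -0.11 (SE 0.25, 95% interval -0.70 to 0.48, limma adjusted p = 0.844) and 0.09 without TLR4ΔIEC replicate 2. Nod2, the sensor of muramyl dipeptide, which in the small intestine is known from Paneth and stem cells (ENSMUSG00000055994; chromosome 8, 88647315 to 88688474, plus strand), was at 0.28, 0.53 and 0.40 TPM in the WT libraries, against 1.02, 0.29 and 0.28 TPM in those labelled TLR4ΔIEC. It overlapped (exact permutation p = 0.9), with a log2 fold change of 0.09 (95% interval -0.39 to 0.58) in the fit down to 0.1 TPM. Beside it, summed Paneth cell markers were 76520 to 86557 TPM in WT, against 13867 to 53155 in TLR4ΔIEC.

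The TLR4ΔIEC libraries differed among themselves for most receptors. TLR4ΔIEC replicate 1 held the highest value of 7 of the 10, and TLR4ΔIEC replicate 2 the lowest of 6, namely Tlr2, Tlr6, Tlr7, Tlr8, Tlr9 and Nod1. How many of all genes had these patterns was not counted, and replicate 2 had the fewest genes above 0 TPM, as given above. In TLR4ΔIEC replicates 1, 2 and 3 the 10 receptors summed to 40.7, 20.7 and 25.0 TPM, against 20.1, 17.3 and 18.6 TPM in WT. Leaving out Tlr3, the sums were 11.6, 11.7 and 11.7 TPM in the WT libraries, against 20.4, 9.25 and 12.7 TPM in those labelled TLR4ΔIEC. The sum of the other 9 was thus nearly equal in the WT libraries, although single receptors such as Tlr1, Tlr6, Tlr8 and Nod1 were not, and it differed between the TLR4ΔIEC libraries.

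Summed markers of macrophages and fibroblasts ranked the TLR4ΔIEC libraries as the receptor sum without Tlr3 did, with replicate 1 highest and replicate 2 lowest. So did those of endothelium, neutrophils, Paneth cells, stem cells and enteroendocrine cells. Other sums did not share this order, among them those of B cells, dendritic cells and epithelium. The T cell sum (35.2, 16.0 and 41.2 TPM) and the smooth muscle sum (344, 186 and 673 TPM) did not share it either. Among the WT libraries the macrophage and fibroblast sums ran opposite to the nearly equal receptor sums. Summed macrophage markers were 145 to 194 TPM in WT and 236, 85.3 and 127 TPM in TLR4ΔIEC replicates 1, 2 and 3. Summed fibroblast markers were 130 to 212 TPM in WT and 246, 48.5 and 129 TPM in TLR4ΔIEC. Dendritic cell markers summed to 19.7 to 25.0 TPM in WT and to 47.3, 7.48 and 48.2 TPM in TLR4ΔIEC, in replicates 1 and 3 mostly through Ly6d (30.1 and 34.5 TPM). Members of that list differed in direction. Xcr1 and Cd209a lay apart and lower, with means of 0.413 and 0.237 TPM and of 0.80 and 0.507 TPM, a pattern of 3.51% of all genes above 0 TPM. Clec9a and Ccr7 overlapped with higher means in TLR4ΔIEC, 0.433 and 0.677 TPM and 0.883 and 2.29 TPM. Siglech, a marker of plasmacytoid dendritic cells, was at 0 in TLR4ΔIEC replicate 2. Neutrophil markers were low, with 5.64 to 6.58 TPM in WT, 10.3, 0.09 and 1.53 TPM in TLR4ΔIEC, and the granule genes Mpo and Elane at 0 in every library. The part of these cells in the receptor values was not tested.

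**Figure D4:**
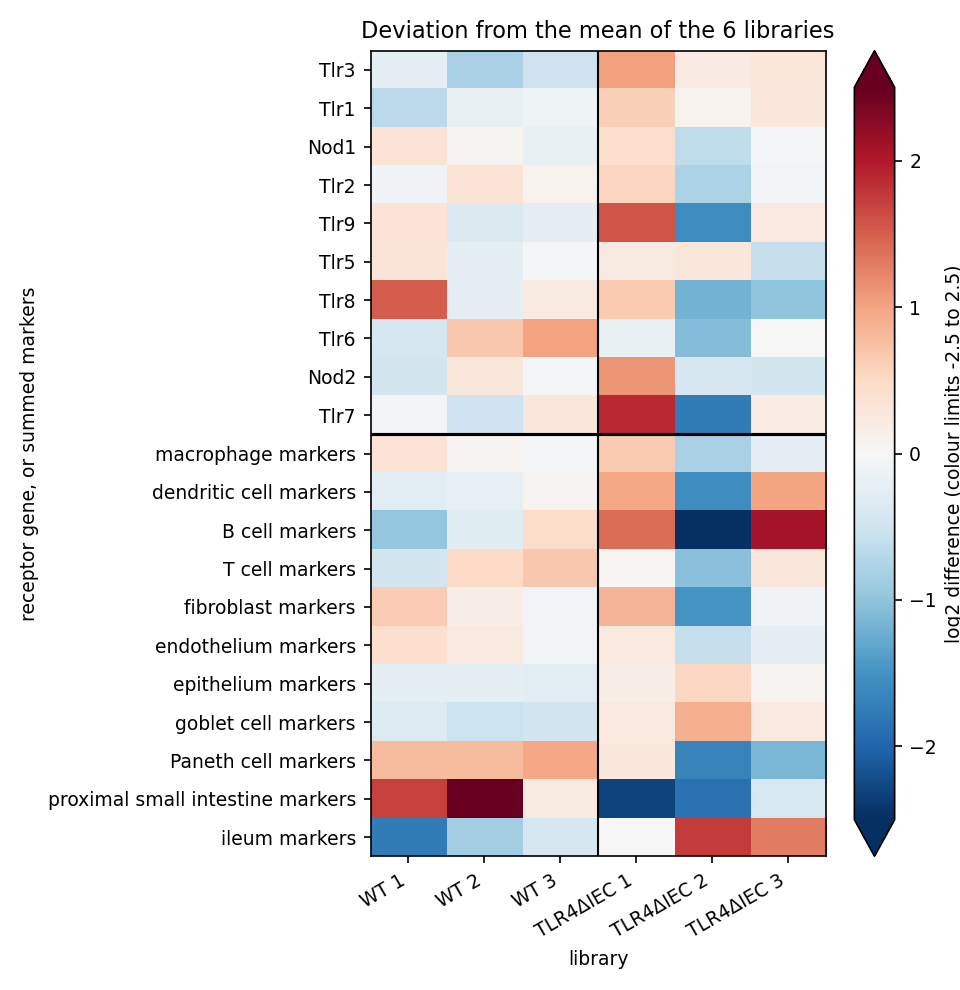
Heat map of the 10 receptors and of summed cell type markers in the 6 libraries, as log2(TPM + 0.1) for receptors and log2(sum + 1) for markers, each centred on its mean of 6. Tlr2, Tlr7, Tlr8, Tlr9 and the immune and stromal marker sums are low in TLR4ΔIEC replicate 2. There the epithelial and goblet cell sums are highest and the Paneth cell sum is lowest.

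For each tested receptor, the genes whose log2(TPM + 1) ran most alike over the 6 libraries were sought among 11741 tested genes with an official symbol. These correlations over 6 libraries, which also carry the differences in cell markers given above, are descriptions only. Tlr3 ran most like Nhsl1, Cpn1 and Ints12 (Pearson r 0.992, 0.991 and 0.986). Tlr1 ran most like Rmc1, Mrps18c and Mex3c (0.988, 0.987 and 0.986). For Tlr2 they were B3galnt2, Inpp4b and Usp33 (0.998, 0.998 and 0.997), and for Tlr9 Msh6, Ddx17 and Ccdc166 (0.986, 0.985 and 0.984). Nod1 ran most like Dact1, Chpf and Col3a1 (0.994, 0.993 and 0.993). Col3a1 is a collagen gene of fibroblasts and belongs to the fibroblast list above.

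RefSeq promoters, the 250 bases before a start site in GRCm38.p6, were found for 9 of the 10 receptors, 12 promoters in all, with none for Tlr7. They were searched on both strands for GGGANTTCC, a form of the NF-kB element, for a GATA element (AGATAA) and for an element of interferon regulatory factors. The matches are shown in 30 bases each, 5′ to 3′ along the gene, with capitals marking the match. They lie at chr3:83841761-83841790 (Tlr2, minus strand), chr8:45410447-45410476 (Tlr3, minus), chr9:106222493-106222522 (Tlr9, plus) and chr5:64959260-64959289 (Tlr6, minus).
Tlr2: aggacacctgGGGAATTCCCacacggagcc
Tlr3: attttgcaaagaAGATAAagcgaggtaagt
Tlr9: gggttgagggggTTATCTgtctgccatctg
Tlr6: ctattctTTTCTCTTTCACTTTCtgtttga
The NF-kB form matched in Tlr2 alone, on both strands in overlapping positions from 172 bases before the start, and in 1.43% of 32851 promoters. The interferon form matched in overlapping positions at 1 start of Tlr6, from 116 bases before it, and in 2.98% of all promoters. The GATA form matched in Tlr3 and Tlr9, from 84 and 93 bases before the start, and in 9.99% of all. Neither Tlr1 promoter held a match. These distances count from the RefSeq start. For the matched promoters of Tlr2, Tlr3 and Tlr6 that start lies inside the GENCODE span given above. The Tlr3 and Tlr6 matches lie inside those spans too.

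Around the receptors, 116 genes of their signalling pathways were listed, of which 92 were tested. None passed the threshold, and the smallest limma adjusted p was 0.0800. The log2 fold changes were above 0 for 72 and below 0 for 20, with a median of 0.36 beside 0.16 for all tested genes. With that median above 0, most of all tested genes were above 0 too, though their share was not counted. Counts of positive values in the lists below carry the same shift. Under the scaling that left out alpha-defensin, mitochondrial and 18S-like genes, 52 of 96 were above 0, with a median of 0.05 beside -0.13. Groups lay apart with TLR4ΔIEC higher for 34 genes (37.0%, beside 24.1% of all tested genes) and with TLR4ΔIEC lower for 4 (4.35%, beside 3.53%). These counts of separation, their shares over all tested genes and those of the lists below are on the deposited TPM. They were not repeated under other scalings.

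**Figure D5:**
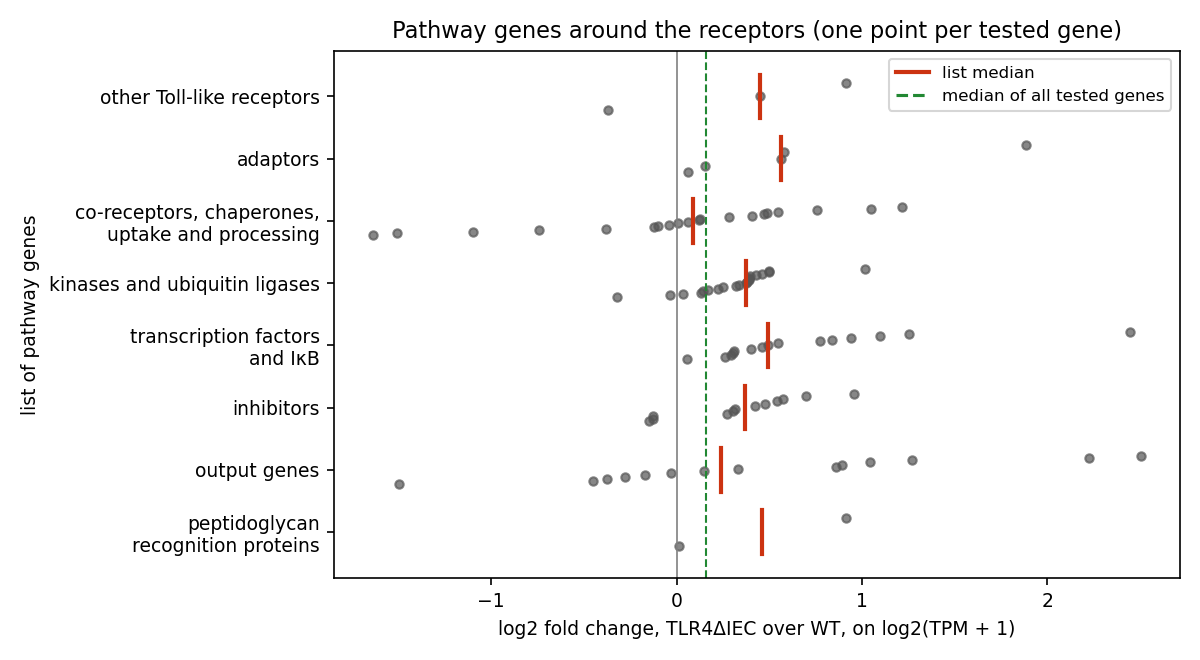
Log2 fold change of TLR4ΔIEC over WT for each tested gene of the 8 pathway lists, as points by list with the list's median, beside the median of all tested genes (0.16). The medians of adaptors (0.56) and transcription factors (0.49) are among the highest, and that of co-receptors, chaperones and ligand handling (0.09) is the lowest.

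The adaptors that carry the receptors' signals had positive log2 fold changes in 5 of 5 tested members, and in 3 of 5 under the scaling without alpha-defensin, mitochondrial and 18S-like genes. Myd88, the adaptor of all the receptors here except Tlr3 and the NODs, had 22.8, 19.2 and 17.5 TPM in the WT libraries, against 33.4, 26.1 and 29.7 TPM in those labelled TLR4ΔIEC (log2 fold change 0.56, limma adjusted p = 0.130). Ticam1, the adaptor of Tlr3, had 22.4, 20.2 and 18.0 TPM in the WT libraries, against 24.9, 38.6 and 29.7 TPM in those labelled TLR4ΔIEC (0.58, limma adjusted p = 0.159). Both lay apart between the genotypes in the deposited TPM. Under median-of-ratios scaling Myd88 stayed apart, whereas Ticam1 overlapped. Card9, an adaptor of fungal receptors and Nod2, was at 3.95 ± 0.846 TPM in WT and 18.7 ± 8.63 TPM in TLR4ΔIEC (SD, n = 3; 1.89, limma adjusted p = 0.0939). Ripk2, the kinase through which Nod1 and Nod2 signal, overlapped, with 1.92 ± 0.373 and 2.12 ± 0.834 TPM (0.06, limma adjusted p = 0.913).

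Genes that carry ligands to the receptors or process them differed in sign, with 12 of 20 positive (7 of 20 under the scaling without alpha-defensin, mitochondrial and 18S-like genes). Slc15a1, the transporter of small peptides including muramyl dipeptide, had 188, 234 and 218 TPM in the WT libraries, against 109, 128 and 146 TPM in those labelled TLR4ΔIEC, without overlap (log2 fold change -0.74, limma adjusted p = 0.0990). Slc15a4, a transporter in endolysosomes that serves Tlr7, Tlr9 and the NODs, was at 26.7 and 9.49 TPM on average (-1.51, limma adjusted p = 0.113). Lyz1, the Paneth cell lysozyme, was at 8077 and 3306 TPM (-1.64, limma adjusted p = 0.174), and Paneth cell markers were lower beside it, as given above. In the other direction, Ctss, a cathepsin that cleaves endosomal receptors, was at 131 ± 19.6 and 270 ± 20.4 TPM (1.05, limma adjusted p = 0.0800). The chaperones of the receptors overlapped: Unc93b1, which moves endosomal receptors, had a log2 fold change of 0.28 and Hsp90b1, which folds most Toll-like receptors, 0.12. Cd14, a co-receptor, had 0.47 and lay apart in the deposited TPM, but overlapped under median-of-ratios scaling.

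Of 21 tested kinases and ubiquitin ligases, 19 had positive values (13 of 22 under the scaling without alpha-defensin genes) and 9 lay apart with TLR4ΔIEC higher, beside 24.1% of all tested genes. Ikbkb, a kinase that releases NF-kB, was at 14.4 ± 0.989 and 20.2 ± 2.19 TPM (log2 fold change 0.46, limma adjusted p = 0.147). Of the ubiquitin ligase subunits Rbck1 and Sharpin, the most abundant of the list, the values were 0.32 and 0.50. All 15 transcription factors and IkB genes had positive values (11 of 15 under that scaling), and 7 lay apart and higher, again beside 24.1%. Jun, part of AP-1, was at 28.6, 29.2 and 28.4 TPM in the WT libraries, against 60.8, 78.3 and 51.7 TPM in those labelled TLR4ΔIEC (1.10, limma adjusted p = 0.0800). Relb, a subunit of NF-kB, was at 48.2 ± 8.66 and 117 ± 29.5 TPM (1.25, limma adjusted p = 0.0873). Irf7, an interferon regulatory factor that acts after Tlr7 and Tlr9, overlapped, with 206, 45.5 and 47.3 TPM in WT, against 893, 790 and 105 in TLR4ΔIEC.

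Among 12 tested inhibitors, 9 had positive values (7 under that scaling) and 4 lay apart and higher, near the 24.1% of all tested genes. Nlrx1, a mitochondrial NOD-like protein, was at 3.46 ± 0.453 and 7.68 ± 0.988 TPM (log2 fold change 0.96, limma adjusted p = 0.0913). Bcl3, an atypical IkB protein, had 0.70 and lay apart, whereas Tnip1 had 0.32 and overlapped. Of 14 tested output genes 8 had positive values (8 of 16 under that scaling). Apart and higher were 5, beside 24.1% of all tested genes, and apart and lower was 1, beside 3.53%. The lower one was Ccl5, a chemokine of T cells, at 97.5, 290 and 261 TPM in WT, against 62.6, 53.9 and 94.3 in TLR4ΔIEC (log2 fold change -1.50, limma adjusted p = 0.132). Saa1, an acute-phase protein, was at 82.6, 73.8 and 65.0 TPM in the WT libraries, against 889, 282 and 301 TPM in those labelled TLR4ΔIEC (2.51, limma adjusted p = 0.0868). The antimicrobial lectins Reg3b and Reg3g had 0.89 and 0.86, and Cxcl10, an interferon-induced chemokine, overlapped with 7.40 to 10.9 and 4.91 to 43.3 TPM. Ifnb1, an interferon gene that Tlr3 signalling can induce, was listed at 0 in every library.

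The peptidoglycan recognition proteins bind the bacterial wall polymer from which NOD ligands are cut. Pglyrp1 was at 286, 193 and 184 TPM in the WT libraries, against 364, 513 and 366 TPM in those labelled TLR4ΔIEC, without overlap (log2 fold change 0.91, limma adjusted p = 0.112). Pglyrp2, an amidase, was at 1.20 and 1.23 TPM, and Pglyrp3 and Pglyrp4 were listed at 0 in every library. Of the further Toll-like receptors, Tlr12 overlapped at 4.60 ± 0.405 and 3.47 ± 1.43 TPM. Tlr11, its partner in sensing profilin, was under the minimum mean at 0.44, 0.26 and 0.38 TPM in the WT libraries, against 0.17, 0.10 and 0.09 TPM in those labelled TLR4ΔIEC, and Tlr13, a sensor of bacterial ribosomal RNA, overlapped at 1.07 to 1.21 and 0.46 to 1.33 TPM.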

How the data were processed

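Deposited values were TPM per gene and library, made by the authors; fastp, HISAT, RSEM and the build GRCm38.p5 appear in the submitters' processing notes, with no version or setting, and whether counting used strand is unknown here. Per the labels' protocols, RNA was extracted with TRIzol and treated with DNase I. TPM sum to the same total in each library, so depth is unknown, and abundant genes lower all others. The authors' group means were not used.

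Sample titles gave the genotype and replicate of each library. Of the genes whose mean reached 1 TPM, log2(TPM + 1) was fitted by limma 3.58.1, R 4.3.3 (eBayes with trend, two-sided, genotype as the single term). Fold changes are TLR4ΔIEC minus WT on that scale, which understates low genes. The fit was tested on simulated data. Limma p-values set the genotype difference against the spread between 3 mice per genotype, moderated over all tested genes. Exact permutation tests used SciPy 1.17.1, and figures matplotlib 3.10.9.

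The receptors, pathway and marker lists, and tests were chosen with earlier results of these data known. Named were all 10 receptors, Tlr4 and, per pathway list, any gene past the threshold, the 2 of highest mean TPM and that of smallest p, and for each tested receptor the 3 genes most like it. Slc15a1, Slc15a4, Cd14, Unc93b1, Ripk2, Cxcl10, Ccl5, Ifnb1, Pglyrp3, Pglyrp4, Tlr11, Tlr13, the ratios and the summed TPM of subsets were chosen after their values were seen. The same holds for Slc40a1, Fgf15, Xcr1, Cd209a, Clec9a, Ccr7 and the shares of Tlr3 and Tlr1. Positions are from GENCODE M21 (GRCm38). Alternatives were other pseudocounts (0.1 and 5 TPM), filters, scalings, eBayes settings, array weights, a replicate block and each library left out.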

Additional observations from a re-analysis of the deposited data

How the results depend on the processing

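No receptor tested under an alternative passed the threshold, though a mean of at least 5 TPM left only Tlr1 and Tlr3 to test. Tlr3 ranged from 0.67 to 1.09 in log2 fold change (limma adjusted p 0.0604 to 0.441) and Tlr1 from 0.30 to 0.66 (0.145 to 0.600) over 19 alternatives each, and both stayed positive. With 1 library left out, Tlr2 ranged from -0.306 to 0.079 and Nod1 from -0.296 to 0.093, turning positive without TLR4ΔIEC replicate 2. The ratio of the mean summed TPM of the 10 receptors, 1.54, was 1.25 to 1.44 under other scalings. Over all genes, 16 passed, against 0 with no filter (3377 at an unadjusted p under 0.05 by limma), 7 at a mean of at least 5 TPM and 136 with array weights. With 1 library left out, 0 to 367 passed: 0 without WT replicate 2 or TLR4ΔIEC replicate 2 (1681 and 2651 at an unadjusted p under 0.05 by limma), 3 and 5 without WT or TLR4ΔIEC replicate 3, 32 without WT replicate 1, and 367 without TLR4ΔIEC replicate 1. The cause was not tested. Of the pathway genes, 0 passed, against 7 with array weights (Relb, Nfkb2, Card9, Nlrx1, Ctss, Jun and Saa1), and 0 to 9 with 1 library left out, the 9 without TLR4ΔIEC replicate 1.

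No label pairs the samples by replicate number. Deviations of same-numbered libraries correlated at -0.037, 0.035 and 0.118, which cannot show whether the mice were paired. With the replicate block 1 gene passed, with no receptor or pathway gene, and Tlr3 had a limma adjusted p of 0.159 and Tlr1 of 0.309. Depth is unknown, and for the 5 receptors under 1 TPM these libraries show no difference beyond their intervals.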
